A study of Homo sapiens with 9 samples.

Results

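Of 9 RNA sequencing libraries labelled as BT549 cells, 3 expressed the keratin gene KRT8 at 50 FPKM or more and the glutathione transferase gene GSTP1 below 1 FPKM. FPKM is the number of fragments per kilobase of exon, scaled to the library's counted fragments. These GSTP1-negative libraries were siNC replicate 1, siWFDC21P-1 replicate 1 and siWFDC21P-1 replicate 2, and their values are given in that order throughout. The other 6 libraries are of 2 kinds by the same thresholds. A GSTP1-positive pair (siNC replicate 2 and siWFDC21P-1 replicate 3) also had high KRT8, and 4 KRT8-low libraries (siNC replicate 3 and siWFDC21P-2 replicates 1 to 3) had KRT8 below 50 FPKM.

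All 9 libraries carry the same label, the human breast cancer line BT549 of genotype WT, known as a triple-negative line of mesenchymal appearance. The cells were transfected with 5 µl of 10 µM siRNA, which was either siNC or 1 of 2 siRNAs named for the transcript WFDC21P, and 1 µg of RNA was used per library after 48 h. Each of the 3 label groups holds 3 libraries. The GSTP1-negative kind cuts across them, with 1 siNC, 2 siWFDC21P-1 and 0 siWFDC21P-2 libraries, and the labels do not say whether replicates were separate cultures, so the spread between them may be technical. WFDC21P was at 3.08, 0.0629 and 0.767 FPKM in the GSTP1-negative libraries (99, 2 and 25 reads). Its level was 0.129 and 0.227 FPKM in the GSTP1-positive pair and 2.12 to 6.87 in the KRT8-low libraries, and reads of the gene and of its overlapping antisense neighbour cannot be told apart without strand.

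Keratins 8 and 18 build the intermediate filaments of simple epithelia, and vimentin builds those of mesenchymal cells. Breast cancer lines spread along the range between these states. GSTP1 conjugates glutathione to toxic compounds, and its CpG-rich promoter is known to be methylated in some cancers. Most human zinc finger genes of the KRAB type lie in clusters on chromosome 19, and many of their proteins repress transposable elements.

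The libraries were selected on their KRT8 and GSTP1 levels, and every gene that differs between the resulting kinds is given as a description with no test. KRT8 was at 232, 93.4 and 112 FPKM in the GSTP1-negative libraries, at 293 and 135 in the GSTP1-positive pair, and at 3.99 to 5.44 in the KRT8-low libraries. GSTP1 was at 0.0179, 0 and 0 FPKM, while the lowest of the other 6 libraries was at 89.4 and the highest at 150. Both thresholds therefore fell in wide empty intervals, between 5.44 and 93.4 FPKM for KRT8 and between 0.0179 and 89.4 FPKM for GSTP1. In bulk RNA, fewer cells of a type and less RNA per cell cannot be told apart.

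**Figure D1:**
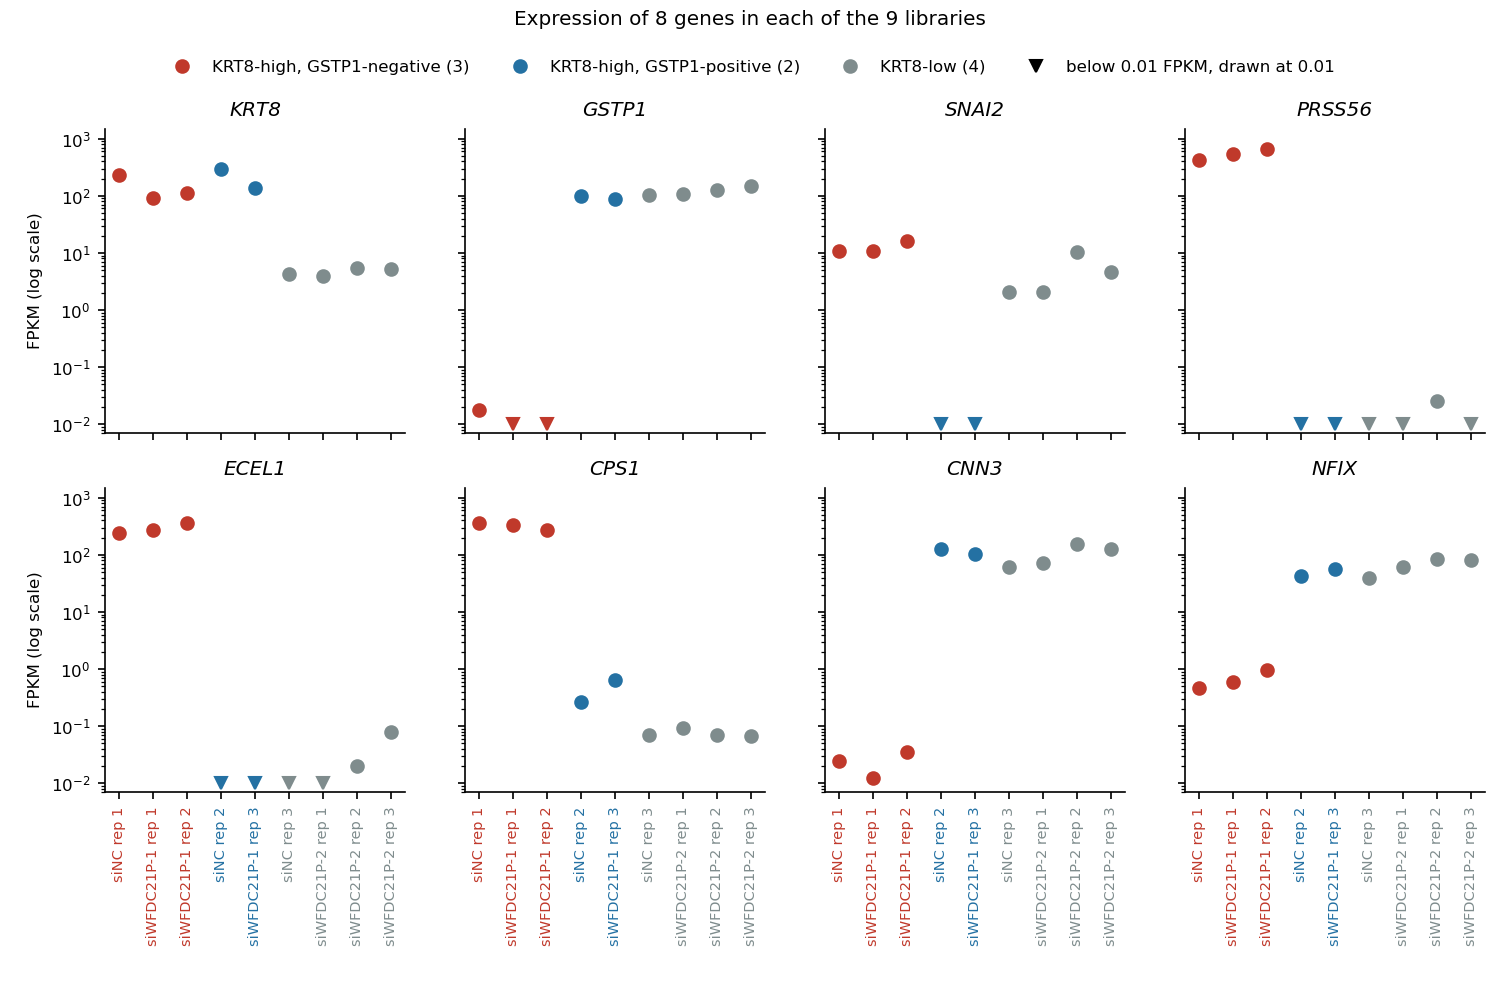
FPKM (log scale) of 8 genes in each of the 9 libraries, with 1 point per library coloured by kind and triangles for values below 0.01 FPKM. KRT8 and GSTP1 chose the libraries; PRSS56, ECEL1 and CPS1 were at 240 FPKM or more, and CNN3 and NFIX at 0.947 FPKM or less, in the 3 GSTP1-negative libraries.

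The markers checked against the label gave a mixed answer. SNAI2, a repressor of epithelial genes, was at 10.9, 11 and 16 FPKM, at 0 in the GSTP1-positive pair and at 2.07, 2.09, 10.4 and 4.62 FPKM in the KRT8-low libraries. The GSTP1-negative libraries were thus the highest for SNAI2, but siWFDC21P-2 replicate 2 came close. CGA and PRSS21 are in the gene tables of the first 5 libraries only and are described at the end. Several mesenchymal genes were near 0: the cadherin CDH2 at 0, 0.00698 and 0 FPKM, THY1 at 0.0117 to 0.0173 and the collagen chain COL1A2 at 0.00613 to 0.0272. The same genes reached 14.7, 43.6 and 56.2 FPKM or more in every KRT8-low library. In the GSTP1-positive pair these genes were near 0 too, at most at 0, 0.0179 and 0 FPKM. Other mesenchymal genes were expressed, among them VIM at 40.4, 41.0 and 38.5 FPKM and TPM2 at 51.6, 63.4 and 80.1. Of the 31 listed, 14 were at 1 FPKM or more in all 3, beside 41.2% of the genes of any type listed for all 9 libraries.

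Depth and table format differed between kinds. The FPKM denominators came to 28.9 to 29.7 M reads in the GSTP1-negative libraries, 28.1 and 28.3 M in the GSTP1-positive pair and 16.3 to 17.4 M in the KRT8-low libraries. The first 5 libraries have hyphenated library names and tables of 34377 genes, the 4 KRT8-low libraries have names without a hyphen and tables of 29104 genes, and 26636 genes are in all 9. The shorter tables hold 0 genes at 0 in all 4 libraries, the longer ones 1054 at 0 in all 5. Genes at 0 in all 4 KRT8-low libraries are thus missing from the shared genes, also where they are high here. The KRT8-low kind and this naming style cannot be told apart. Counts against the GSTP1-positive pair alone, which shares the naming style, are therefore given beside the main ones.

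The GSTP1-negative libraries resembled each other more than any library of the other kinds, and stood somewhat farther from the KRT8-low libraries than from the GSTP1-positive pair. Over 13014 shared genes whose mean reached 1 FPKM, Pearson's r of log2(FPKM + 1) was 0.949 to 0.971 between them, 0.711 to 0.744 with the GSTP1-positive pair and 0.697 to 0.728 with the KRT8-low libraries. These r are across genes, which are not independent. More than 1 log2 unit separated 419 to 974 genes within the kind, 3254 to 3804 against the pair and 3828 to 4595 against the KRT8-low libraries.

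All 3 lay above all other 6 libraries for 1840 genes (14.1% of those examined) and below all 6 for 1771 (13.6%). These shares are the background for the same counts in the gene lists below. Against the GSTP1-positive pair alone the counts were 3590 above (27.6%) and 4206 below (32.3%). A gap is the difference in log2(FPKM + 1) between the nearest libraries of the 2 sides. It was at least 2 for 127 genes upwards (0.976%) and for 108 downwards (0.83%). At 10 FPKM or more in all 3 and below 1 FPKM in all 6 were 35 genes (0.269%), called high only here, and the opposite held for 22 genes (0.169%), GSTP1 among them, called lost. Against the pair alone, 102 genes were high only and 139 lost.

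Genes were also classed by gaps of at least 1 log2 unit to each of the other kinds. The GSTP1-negative libraries were highest for 324 genes (2.49%), lowest for 310 (2.38%) and between the other kinds for 58 (0.446%). They stood with the GSTP1-positive pair, away from the KRT8-low libraries, for 1170 genes (8.99%). They stood with the KRT8-low libraries, away from the pair, for 1139 genes (8.75%), and no such gap was seen for 10013 (76.9%). The libraries thus shared similar numbers of genes with each of the other kinds.

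The 3 protein-coding genes with the largest gaps upwards were among the abundant transcripts of these libraries and close to absent elsewhere. PRSS56, a serine protease known from eye development, was at 422, 534 and 652 FPKM. The only other library with signal was siWFDC21P-2 replicate 2, at 0.0250 FPKM. ECEL1, a membrane peptidase of neurons, was at 240, 277 and 357 FPKM and at most at 0.0783 elsewhere. CPS1, the mitochondrial enzyme that starts the urea cycle in liver, was at 369, 333 and 276 FPKM and at most at 0.630 elsewhere. The gaps of the 3 genes were 8.69, 7.80 and 7.41.

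Secreted proteins and surface receptors followed. L1CAM, a neural adhesion molecule, was even across the kind at 80.2, 86.0 and 84.2 FPKM and at most at 0.681 elsewhere. CXCR4, the receptor of the chemokine CXCL12, was at 38.0, 33.3 and 41.0 FPKM against at most 0.511. SEMA3B, a secreted semaphorin, was at 73.1, 61.5 and 80.3 FPKM, and its lowest level here was 83.3-fold above the highest elsewhere. GAL, the precursor of the neuropeptide galanin, was more variable at 19.8, 22.2 and 48.6 FPKM against at most 0.575. EGFLAM, an extracellular matrix protein of synapses, was at 13.8 to 20.8 FPKM, and the receptor phosphatase PTPRM, which mediates cell adhesion, at 11.8 to 21.1.

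Some genes of liver metabolism and plasma proteins were high beside CPS1. C4BPB, a chain of the complement regulator C4b-binding protein, was at 76.8, 55.0 and 81.7 FPKM and at most at 0.0332 elsewhere. HPD, an enzyme of tyrosine breakdown, was at 29.2, 34.4 and 55.8 FPKM against at most 1.18. The liver list, which does not hold these genes, gave another picture. Of its 18 members only 6 are listed for all 9 libraries. Of these, 0 reached 1 FPKM in all 3 libraries, beside 41.2% of all shared genes of any type. ALB, serum albumin, was at 0 in each of the 3.

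The other genes with gaps this large encode transporters and intracellular proteins, with the phosphodiesterases and NPR1 described further on. The efflux pump ABCC2 was at 53.3, 40.6 and 39.2 FPKM, and the efflux pump ABCG2 at 41.3, 21.0 and 26.1. The glucose transporter SLC2A3 was at 31.1, 37.1 and 21.3 FPKM, a lowest level 195-fold above the highest elsewhere, and SLC16A6, of the monocarboxylate transporter family, at 55.1, 43.5 and 25.2. These 4 genes were below 1 FPKM in each of the other 6 libraries. The chromodomain protein gene CDYL2 was at 38.0, 26.2 and 22.2 FPKM, and the homeobox gene BARX1, known from stomach and tooth development, at 16.6, 23.2 and 28.1. MISP, an actin-binding protein of the mitotic spindle, was at 36.9, 19.4 and 38.4 FPKM, RASIP1, a Ras-interacting protein of vessels, at 20.3, 23.1 and 25.6, SH3GL2, an endocytosis protein of synapses, at 17.8, 17.8 and 15.3, and GDA, guanine deaminase, at 28.0, 26.5 and 11.6. In every case the groups did not overlap, and the smallest gap among the 25 genes was 3.58.

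**Figure D2:**
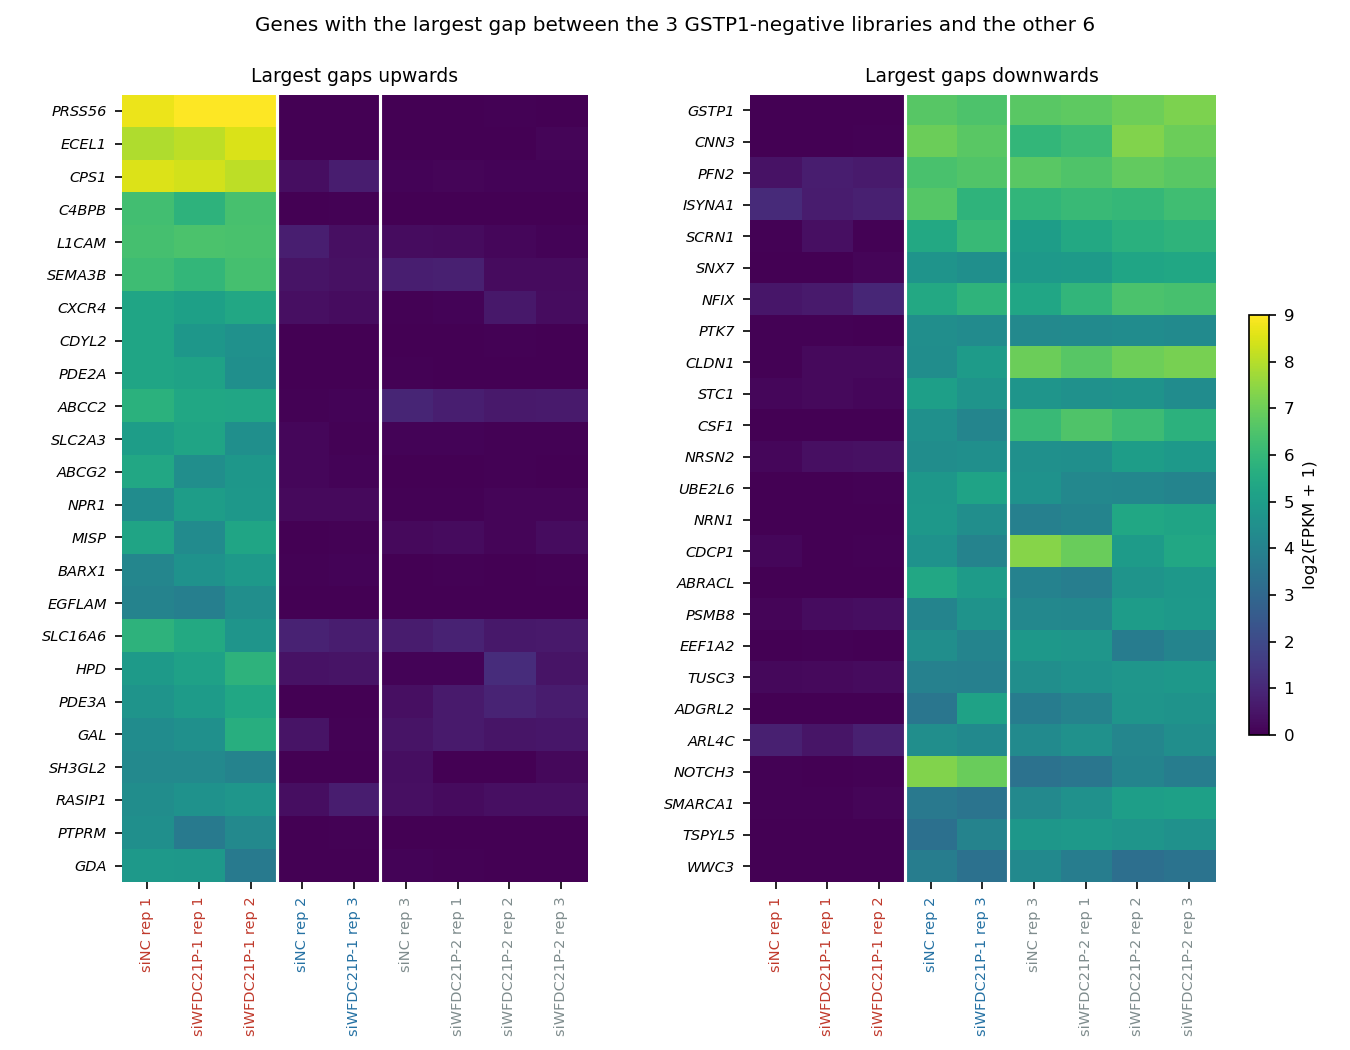
Heat map of log2(FPKM + 1), on a colour scale from 0 to 9, for protein-coding genes with the largest gaps upwards (left) and downwards (right), with 1 row per gene and 1 column per library; the first 3 columns are the GSTP1-negative libraries and white lines divide the kinds. PRSS56 has the largest gap upwards (8.69) and GSTP1, which chose the libraries, the largest downwards (-6.47).

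Among long noncoding genes, the 5 largest gaps upwards included ELFN1-AS1 at 9.16, 18.9 and 19.8 FPKM (gap 3.18) and ARLNC1 at 9.58, 5.79 and 12.8 (gap 2.38). The 35 high-only genes summed to 0.266 to 0.344% of their GSTP1-negative mean in the other 6 libraries. In each of those libraries 17 to 24 of the 35 were below 0.1 FPKM. Low levels there were required by the definition of high only, so these figures describe the picked genes and support nothing further.

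Promoter windows of 300 bases, from 250 before to 50 after the start, are shown for 3 silent and 2 active genes to set the CG content of high-only genes beside that of lost genes. The windows are RefSeq sequences of GRCh38.p14, 5′ to 3′ on the gene's strand, and capitals mark CG dinucleotides. GSTP1 (glutathione transferase), CNN3 (an actin-binding calponin) and ZNF256 (a chromosome 19 zinc finger gene) were silent here and active in the other 6 libraries. PRSS56 was high only, and CGA, the alpha chain of the glycoprotein hormones, was high in these libraries and at most at 0.0467 FPKM in the GSTP1-positive pair. ZNF256, CNN3 and CGA were picked for display after their values were seen. The positions are chr11:67583562-67583861, plus strand, for GSTP1, chr1:94927061-94927360, minus strand, for CNN3, chr19:57947657-57947956, minus strand, for ZNF256, chr2:232520138-232520437, plus strand, for PRSS56 and chr6:87095057-87095356, minus strand, for CGA.
GSTP1: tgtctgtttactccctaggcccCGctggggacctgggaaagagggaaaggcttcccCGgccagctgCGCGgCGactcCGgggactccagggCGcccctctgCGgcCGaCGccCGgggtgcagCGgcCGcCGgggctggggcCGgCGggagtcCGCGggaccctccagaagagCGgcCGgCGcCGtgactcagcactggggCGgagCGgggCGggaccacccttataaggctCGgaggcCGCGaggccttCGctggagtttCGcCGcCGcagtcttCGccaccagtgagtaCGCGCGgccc
CNN3: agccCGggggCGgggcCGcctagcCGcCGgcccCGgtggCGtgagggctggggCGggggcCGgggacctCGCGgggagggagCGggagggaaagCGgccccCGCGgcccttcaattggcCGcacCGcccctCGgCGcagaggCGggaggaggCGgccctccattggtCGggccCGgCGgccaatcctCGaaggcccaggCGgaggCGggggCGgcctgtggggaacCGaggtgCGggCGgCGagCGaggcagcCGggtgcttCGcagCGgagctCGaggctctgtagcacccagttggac
ZNF256: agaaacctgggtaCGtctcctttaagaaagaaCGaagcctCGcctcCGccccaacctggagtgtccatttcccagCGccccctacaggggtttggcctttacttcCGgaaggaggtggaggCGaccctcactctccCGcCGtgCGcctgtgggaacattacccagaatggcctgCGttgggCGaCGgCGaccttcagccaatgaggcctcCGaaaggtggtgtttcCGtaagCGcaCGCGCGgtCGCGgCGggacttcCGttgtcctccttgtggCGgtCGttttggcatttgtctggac
PRSS56: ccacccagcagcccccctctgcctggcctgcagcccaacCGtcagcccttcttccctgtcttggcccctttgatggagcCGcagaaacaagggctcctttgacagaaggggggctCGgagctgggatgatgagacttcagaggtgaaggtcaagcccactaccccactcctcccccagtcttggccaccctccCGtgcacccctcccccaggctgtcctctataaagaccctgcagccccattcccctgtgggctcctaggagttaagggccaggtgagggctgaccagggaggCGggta
CGA: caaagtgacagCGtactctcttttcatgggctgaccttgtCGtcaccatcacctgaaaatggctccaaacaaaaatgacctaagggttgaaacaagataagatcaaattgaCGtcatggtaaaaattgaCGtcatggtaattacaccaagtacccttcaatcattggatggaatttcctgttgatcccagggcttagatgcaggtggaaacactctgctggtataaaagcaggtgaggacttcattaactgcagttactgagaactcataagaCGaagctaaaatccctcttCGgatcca

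The windows of the silent genes held 36 (GSTP1), 37 (CNN3) and 26 (ZNF256) CG dinucleotides, those of PRSS56 and CGA 5 and 6. The median was 10 CG over the 26 high-only genes with a window, 31 over the 15 lost genes with a window, which include the selecting gene GSTP1 (29.5 without it), and 27 over the 9075 examined protein-coding genes with one. At least 15 CG were held by 12 of the 26 high-only windows, 14 of the 15 lost windows (13 of 14 without GSTP1) and 85.2% of all. In wider sets of low genes, at least 15 CG were held by 81.3% of the windows with a gap of at least 2 downwards (median 28), 79.2% of those of the 163 genes silent in all 3 and at 1 FPKM or more in all other 6 (median 27), and 75% of those of the silent chromosome 19 zinc finger genes (median 20). No methylation was measured, so the CG counts describe the sequences only. The CGA window holds 2 copies of TGACGTCA, the palindromic cAMP response element, which reads the same on both strands. That motif is in 312 of the 9075 windows (3.44%) and in 1 of the 26 high-only windows, that of SH3GL2.

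PRSS56 and ECEL1 are neighbours on chromosome 2, and the region was looked at because both genes led the ranking. In hg38, PRSS56 spans chr2:232520463-232525716 on the plus strand, and ECEL1 lies 40.6 kb before it on the minus strand. CHRND, a muscle acetylcholine receptor subunit that begins 5.53 kb after the start of PRSS56, was at 5.69, 3.09 and 9.38 FPKM and at most at 0.0196 elsewhere. The next gene, CHRNG, the fetal subunit of the same receptor, was at 0.0392, 0.159 and 0.232 FPKM, which overlaps the other libraries. EIF4E2, a cap-binding protein gene 29.6 kb away, was above all 6 by a smaller margin, at 12.2, 12.1 and 15.8 FPKM against 4.09 to 9.16. EFHD1, a mitochondrial calcium-binding protein gene 85.6 kb away, lay between the other kinds at 2.94, 4.17 and 3.31 FPKM, with 74.2 and 77.8 in the GSTP1-positive pair and at most 0.320 in the KRT8-low libraries. ALPP, placental alkaline phosphatase, lies 142 kb before PRSS56 and is in the longer tables only. It was at 16.3, 2.48 and 19.5 FPKM against 0.312 and 0.0233 in the pair, an uncertain value because ALPG is a near-identical copy.

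**Figure D3:**
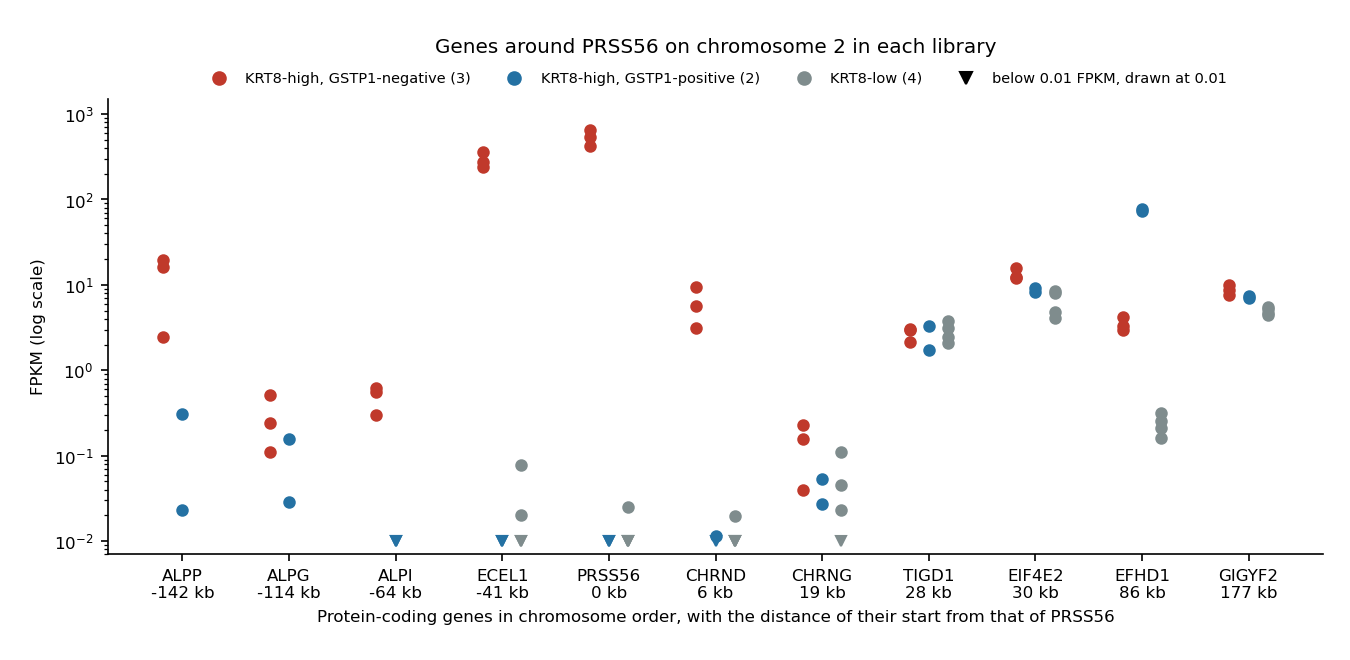
FPKM (log scale) of the genes around PRSS56, in order along the chromosome with their distance from the start of PRSS56 in kb, with 1 point per library coloured by kind and triangles for values below 0.01 FPKM. ECEL1, PRSS56 and CHRND separate the GSTP1-negative libraries from the rest, CHRNG and TIGD1 do not.

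Phosphodiesterases, the enzymes that break down cyclic AMP and cyclic GMP, were grouped after PDE2A, PDE3A and PDE4D were seen among the high-only genes. Of 19 listed genes of the family 13 were examined, 8 of which lay above all 6 libraries and 1 below. A gap of at least 2 upwards was seen for 6, against 0.976% of all genes. These 6 reached the mean of 1 FPKM only through the GSTP1-negative libraries. PDE2A was at 38.6, 35.0 and 21.2 FPKM and at most at 0.0256 elsewhere. PDE3A was at 24.2, 29.6 and 40.3 FPKM against at most 0.868, and PDE4D at 36.2, 19.3 and 16.4. Smaller gaps were seen for PDE1A (13.6 to 18.6 FPKM), PDE3B (4.12 to 8.30) and PDE8B (5.60 to 8.87). PDE1C went the other way, at 0, 0.0175 and 0.0244 FPKM against 14.1 to 19.2 in the KRT8-low libraries. NPR1, the natriuretic peptide receptor that makes cyclic GMP, was at 19.8, 31.3 and 26.9 FPKM, a lowest level 111-fold above the highest elsewhere.

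The epithelial genes split into an expressed and a silent set. KRT18, the partner of KRT8, was at 151, 80.4 and 83.1 FPKM against 90.6 and 53.8 in the GSTP1-positive pair, and KRT7 at 107, 41.5 and 79.8 against 129 and 76.1. Desmosome and plaque genes were also expressed, with DSP at 44.8, 48.6 and 53.0 FPKM, JUP at 104, 61.8 and 63.1 and PKP3 at 14.2, 21.6 and 23.0. The KRT8-low libraries were at most at 1.34, 3.58 and 3.47 FPKM for these 3. SFN, an epithelial 14-3-3 protein, was at 97.8, 94.4 and 70.1 FPKM against at most 1.77 in the KRT8-low libraries, and the epithelial splicing factor ESRP2 at 11.4, 17.6 and 17.4 against at most 1.14.

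The silent set held the surface and regulatory genes that define many simple epithelia. EPCAM, an epithelial adhesion molecule, was at 0, 0.0412 and 0 FPKM against 209 and 228 in the GSTP1-positive pair. The KRT8-low libraries were also near 0 for EPCAM, at most at 0.0731 FPKM. E-cadherin (CDH1) was at 0.0277, 0.0504 and 0.0818 FPKM, below all other libraries, and KRT19 at 0.0585, 0 and 0.0721 against 925 and 474 in the pair and at least 0.418 in the KRT8-low libraries. The epithelial regulators ESRP1, GRHL2 and RAB25 were at most at 0.0445 FPKM here, at most at 0.0361 in the KRT8-low libraries and at least at 15.8 in the pair. The silence of EPCAM and these regulators was thus shared with the KRT8-low libraries. Of the 34 listed junction and regulator genes, 13 were at 1 FPKM or more in all 3 libraries and 17 below 1 in all 3. The share at 1 FPKM or more was 41.2% over all shared genes. That share covers noncoding genes too, whereas the list members are protein-coding, so it is not a like base. Of the 33 examined 1 lay above all 6 libraries and 6 below. Among 9 simple keratins, which include the selecting gene KRT8, 5 were at 1 FPKM or more, and of the 7 examined 0 lay above all 6 and 1 below.

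**Figure D4:**
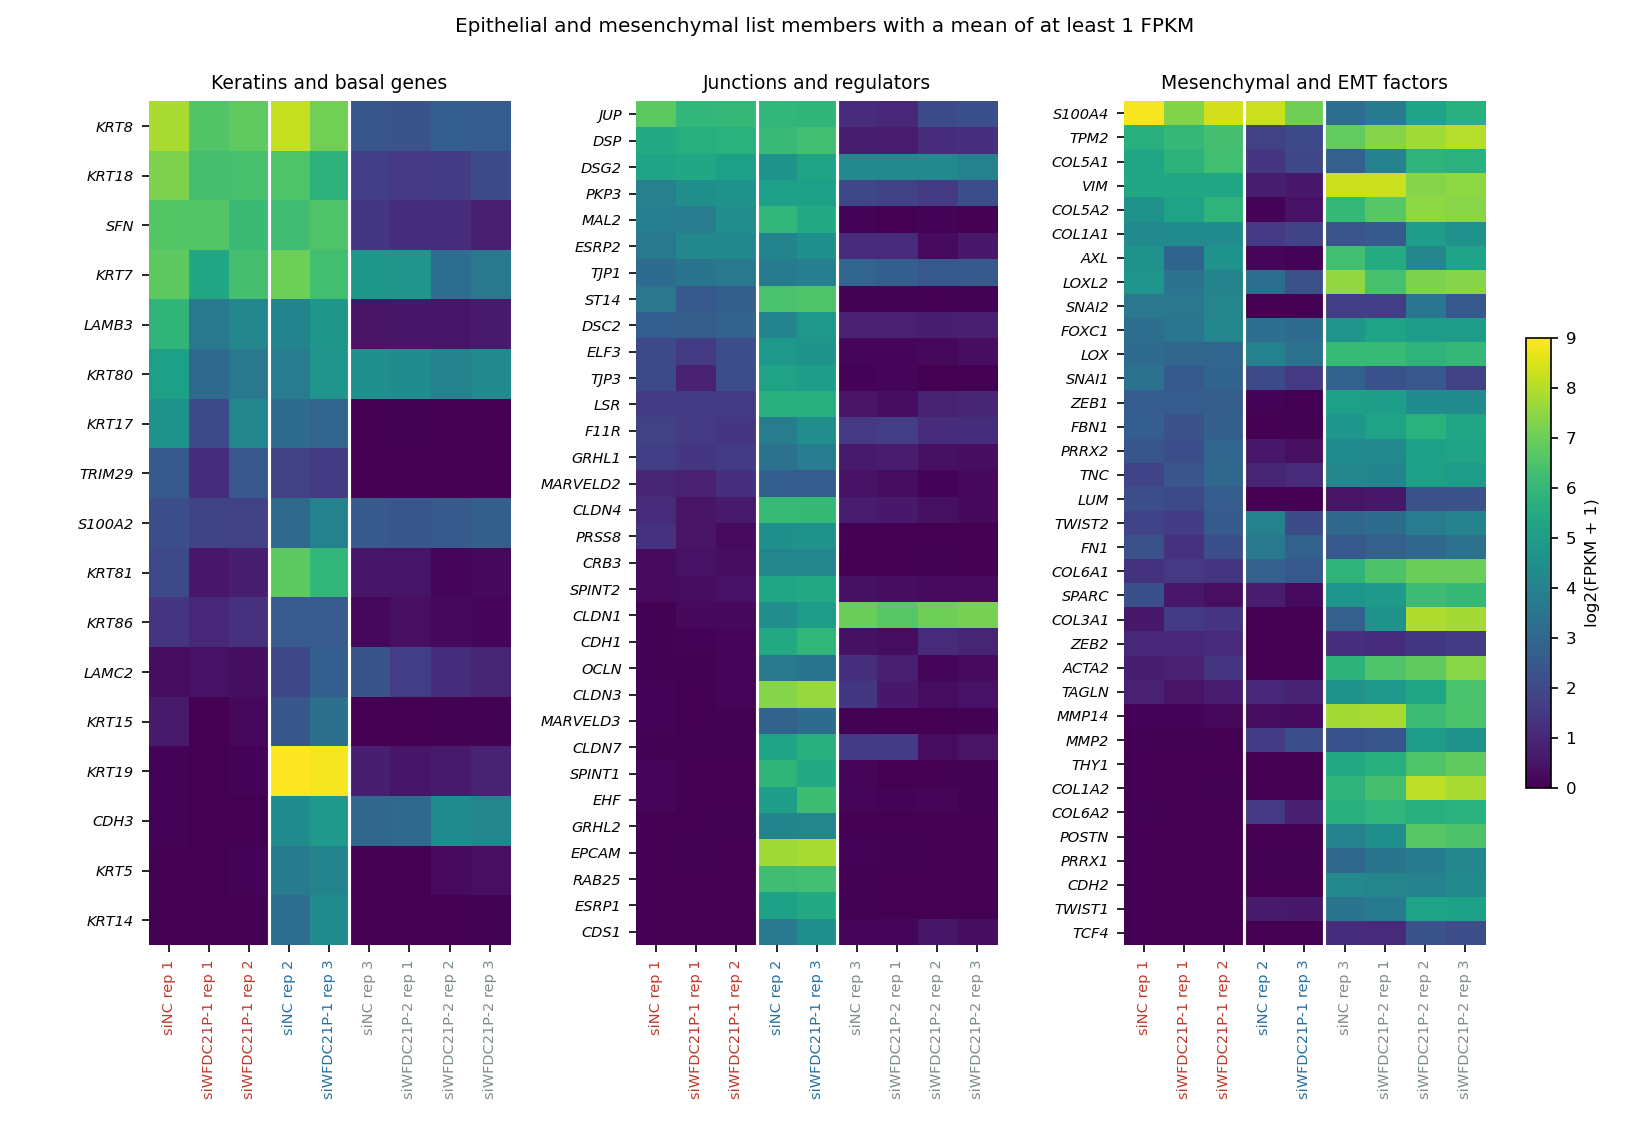
Heat map of log2(FPKM + 1), on a colour scale from 0 to 9, for epithelial (left, middle) and mesenchymal (right) list members, with 1 row per gene and 1 column per library; the first 3 columns are the GSTP1-negative libraries and white lines divide the kinds. KRT8 was used to choose the libraries. KRT18, DSP and SFN stand with the GSTP1-positive pair, and VIM lies between the other kinds. CDH1 is near 0 in the GSTP1-negative libraries, and EPCAM is near 0 in these and in the KRT8-low libraries.

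Mesenchymal genes were split as well. Vimentin (VIM) lay between the other kinds, which were at 0.699 and 0.517 in the GSTP1-positive pair and 162 to 310 in the KRT8-low libraries. ZEB1, a transcription factor that drives the mesenchymal state, did the same at 5.15, 5.14 and 5.33 FPKM, above the pair (at most 0.0735) and below the KRT8-low libraries (at least 19.4). Collagen genes differed from each other: COL5A1 (39.4, 55.9 and 76.6 FPKM) and COL1A1 (18.7, 19.2 and 19.2) overlapped the KRT8-low libraries, whereas COL1A2 was near 0. The tropomyosin TPM2 and the receptor tyrosine kinase AXL, at 22.8, 6.53 and 23.5 FPKM, were both above the pair. TWIST1, another driver of the mesenchymal state, was at 0 in all 3, and MMP14, a membrane collagenase, at 0.0613, 0.0697 and 0.143 FPKM.

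Of 25 examined mesenchymal genes 0 lay above all 6 and 7 below, beside 14.1% and 13.6% of all examined genes. The median difference of the 25 in mean log2(FPKM + 1) was -2.21, against 0.03 over all genes. Among the 10 examined transcription factors of the epithelial to mesenchymal transition, 1 lay above all 6 and 2 below (median -0.79), beside the same shares. Of the 28 listed caveola, annexin and S100 genes 26 were at 1 FPKM or more in all 3, beside 41.2% of all shared genes of any type. The same count was 26 in the GSTP1-positive pair and 21 in the KRT8-low libraries, so the high share is not particular to this kind. Among 27 examined, 1 lay above and 4 below, beside the same 14.1% and 13.6%. S100P, a calcium-binding protein of placenta and carcinomas, was the one above, at 93.8, 30.9 and 50.4 FPKM against at most 3.18.

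The luminal and basal breast lists each held expressed and silent genes, and no name is given to these cells. Of 17 listed luminal genes 6 were at 1 FPKM or more in all 3 libraries, beside 41.2% of all shared genes of any type. Of 14 examined 1 lay above all 6 and 6 below (median -0.96). GATA3, a luminal transcription factor, was at 0.0946, 0.159 and 0.135 FPKM against 7.98 to 30.0 elsewhere. The estrogen receptor gene ESR1 was at most at 0.0767 FPKM, whereas FOXA1, its pioneer factor, was at 4.65, 7.68 and 6.88. TBX3, a mammary T-box factor, was above all 6 by a small gap (0.37), at 18.8, 18.2 and 26.5 FPKM. Of 14 listed basal and squamous genes 5 were at 1 FPKM or more in all 3, beside the same 41.2%. Of 10 examined 0 lay above all 6 and 3 below, beside 14.1% and 13.6% of all examined genes. The basal cadherin CDH3 was at 0.0548, 0.00554 and 0.0108 FPKM, and the basal keratins KRT5 and KRT14 were at most at 0.0628. Other members of the same list were expressed beside SFN: KRT17 at 22.8, 2.98 and 16.7 FPKM, the laminin chain LAMB3 at 58.8, 11.3 and 16.4, and TRIM29 at 4.85, 1.25 and 4.5.

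Lists of other lineages held single high genes. In the list of kidney and Mullerian genes, MSLN, the mesothelial and ovarian surface antigen mesothelin, was at 42.0, 36.6 and 76.1 FPKM (gap 1.94), while PAX8, a defining factor of that list, was at most at 0.314. Of 29 placental genes only 14 are listed for all 9 libraries, and CGA is not. Of the 14, 4 were at 1 FPKM or more in all 3, beside 41.2% of all shared genes of any type. Among them was GATA2, a factor of blood and trophoblast cells, at 40.6, 38.9 and 28.7 FPKM (gap 2.08). SALL4, a stem cell and germ cell factor, was at 5.17, 5.88 and 7.61 FPKM (gap 2.12). Of 35 germ cell genes only 8 are listed for all 9 libraries, and 4 of these were at 1 FPKM or more in all 3, beside the same 41.2%. PRSS21, PAGE1 and CTAG2 are among the germ cell genes left out of that count and are described at the end. PRAME was at 12.3, 16.4 and 23.5 FPKM (gap 0.15), and MAGEA3 at 74.6, 80.6 and 83.9, close to the 77.7 and 84.1 of the GSTP1-positive pair, with counting uncertain because it has near-identical copies.

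Neuronal, steroidogenic, melanocyte, endothelial and muscle lists were examined next. Of 13 examined neuroendocrine and neuronal genes 2 lay above all 6 libraries and 8 below (median -2.01). SNAP25, a synaptic vesicle fusion protein, was at 17.6, 11.1 and 21.7 FPKM, and PCSK1, a prohormone convertase, at 4.91, 14.7 and 22.2. ENO2, neuronal enolase, went the other way at 0.00799, 0.0565 and 0.134 FPKM, as did STMN1, a microtubule regulator, at 24.9, 28.8 and 31.2 against at least 93.6. CYP11A1, which starts steroid synthesis and was the 1 of 3 examined steroidogenic genes above all 6, was at 2.57, 2.5 and 6.38 FPKM and at most at 0.0527 elsewhere. Of 6 listed muscle genes 4 were below 1 FPKM in all 3 and 2 were examined. These 2 lay above all 6: CHRND, described above, and TNNT1, a slow muscle troponin, at 18.2, 12.3 and 23.8 FPKM against at most 8.1. CHRND, CYP11A1, SNAP25 and PCSK1 reached the mean of 1 FPKM only through the GSTP1-negative libraries. Little can therefore be read from their counts above all 6. MITF, a melanocyte factor, was at 6.87, 11.2 and 5.95 FPKM, and ERG, an endothelial factor, at 1.15, 3.38 and 4.58. The leukocyte marker PTPRC was at most at 0.0362 FPKM. Of 20 leukocyte genes only 12 are listed for all 9 libraries, and of 12 endothelial genes 11. At 1 FPKM or more in all 3 were 1 of the listed leukocyte genes and 1 of the listed endothelial genes, beside 41.2% of all shared genes of any type.

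After GSTP1, the largest gaps downwards were those of CNN3 and PFN2, which act on the actin cytoskeleton. CNN3 was at 0.0241, 0.0122 and 0.0356 FPKM against 60.8 to 154 elsewhere (gap -5.90). Its divergent long noncoding neighbour CNN3-DT was at 0, 0.0342 and 0 FPKM against 4.91 to 12.1. PFN2, an actin-binding profilin, was at 0.358, 0.663 and 0.578 FPKM against 83.4 to 114. The tight junction gene CLDN1 was at 0.028, 0.16 and 0.166 FPKM against 20.2 and 29.4 in the GSTP1-positive pair and 99.7 to 140 in the KRT8-low libraries. PTK7, a Wnt pathway pseudokinase, was at 0.0417, 0.0345 and 0.0187 FPKM against a narrow 18.0 to 20.7 in the other 6 libraries.

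Signalling, enzyme and chromatin genes were also among the 25 largest gaps downwards. NOTCH3, a Notch receptor, was at 0.0364, 0.0184 and 0.0466 FPKM against 158 and 122 in the pair and 9.57 to 15.5 in the KRT8-low libraries. ISYNA1, which makes inositol phosphate, was at 1.09, 0.590 and 0.739 FPKM, and the lowest level elsewhere was 51.4-fold above the highest here. NFIX, a transcription factor of the nuclear factor I family, was at 0.461, 0.582 and 0.947 FPKM against 39.2 to 85.9. SMARCA1, a nucleosome-remodelling ATPase, was at 0.0392, 0.0475 and 0.1 FPKM against 10.1 to 33.7. PSMB8, an immunoproteasome subunit, was at 0.0852, 0.224 and 0.269 FPKM against 15.8 to 30.3, and CSF1, the macrophage growth factor, was at most at 0.0189 against 16.3 to 91.0.

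Some genes had no read in any of the 3 libraries. With the limit that a count of 0 allows set at 3 reads per library, NRN1, a neurite growth factor, was at least 319-fold lower than in the nearest other library, ABRACL, a small actin regulator, at least 154-fold, and ADGRL2, an adhesion G protein-coupled receptor, at least 790-fold. TSPYL5, of the nucleosome assembly family, was at least 390-fold lower and WWC3, a Hippo pathway scaffold, at least 602-fold. These limits cover counting error only.

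Loss of expression was examined over all protein-coding genes. Of 11175 at 1 FPKM or more in every library of at least 1 other kind, 754 (6.75%) were below 0.1 FPKM in all 3 GSTP1-negative libraries. Of 8888 at 1 FPKM or more in all other 6 libraries, 163 (1.83%) were. In the other direction, 10977 of the 26636 shared genes (41.2%) were at 1 FPKM or more in all 3, and 287 (1.08%) were so while below 1 FPKM in all other 6. These shares are over genes of any type, expressed or not, and cannot be set against the 6.75% and 1.83%.

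Zinc finger genes of chromosome 19 were 23 of these 163, and their list was drawn up, by symbol, after silent stretches of them had been seen. Of 252 listed, 72, 73 and 71 were at 0 in the GSTP1-negative libraries against 1 to 6 in each of the others. At 1 FPKM or more were 95, 98 and 117, against 160 to 183. Of the 120 at 1 FPKM or more in all other 6 libraries, 23 (19.2%) were below 0.1 FPKM in all 3, beside 1.83% of all protein-coding genes, 0.397% of other chromosome 19 genes and 5.56% of zinc finger genes on other chromosomes. Against the pair alone the silent genes numbered 35. By the same measure the GSTP1-positive pair had lost 0 of the 72 expressed in all libraries outside it, and the KRT8-low libraries 0 of 82. Of 157 examined, 8 lay above all 6 libraries and 64 below. The median level of the 120 was 1.52, 1.53 and 2.09 FPKM, and 2.37 to 2.88 in the other 6 libraries. A lower median here is partly built in, because the 120 were picked by their level in the other 6 alone.

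Of the 23 silent zinc finger genes, 16 lay in stretches of neighbouring silent genes and 7 did not. Of 23 stretches of at least 3 neighbouring expressed-elsewhere genes that were silent here, with 84 genes in all, 8 on chromosome 19 held 35 genes, all of them zinc finger genes. The stretch with the most genes, chr19:19865886-20950697 (hg38), ran from ZNF253 to ZNF85 with 7 genes. Another, chr19:57921884-58118427, held 6 genes with ZNF256 among them, and chr19:52369917-52690496 held 5, ending at ZNF83. ZNF256 was at 0 in all 3 libraries and at 3.09 to 4.95 FPKM in the others, at least 64.7-fold lower. ZNF347 and ZNF470 were also at 0, at least 144-fold and 107-fold lower, and ZNF83 was at 0, 0 and 0.00840 FPKM against 3.03 to 13.3. ZNF354C in a stretch on chromosome 5 was at 0, 0.00639 and 0 FPKM against 4.67 to 8.67.

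**Figure D5:**
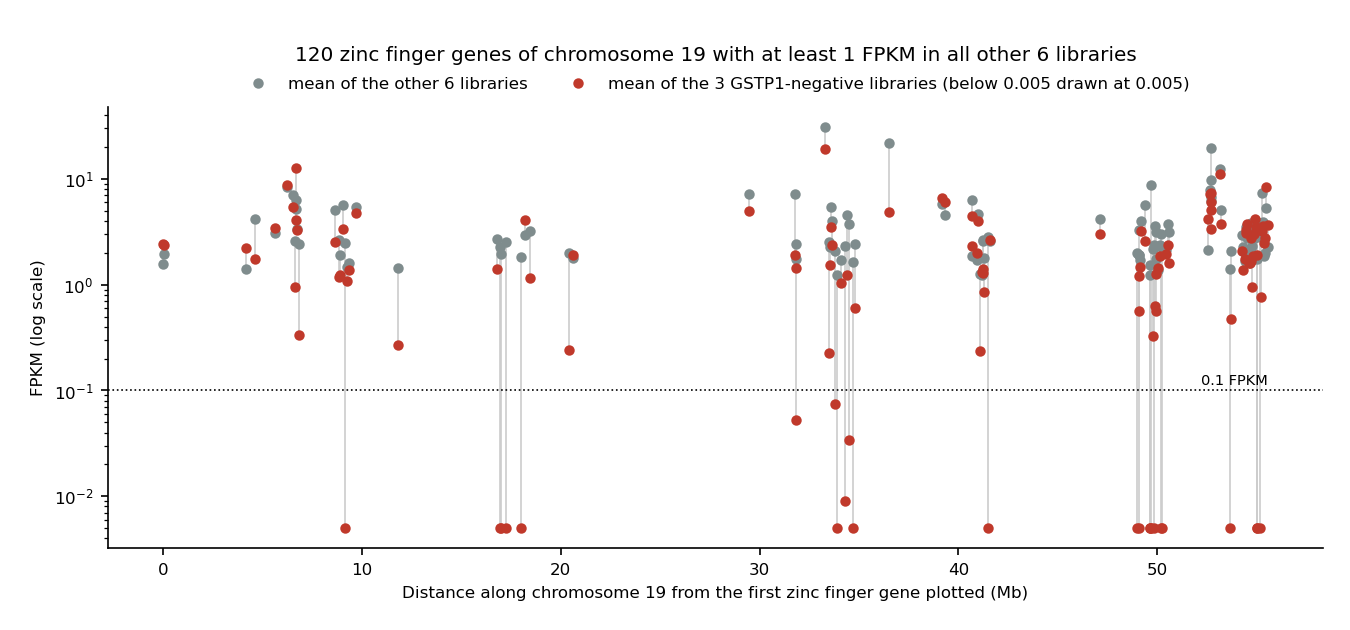
Chromosome 19 zinc finger genes by distance from the first of them in Mb, with the mean FPKM (log scale) of the 3 GSTP1-negative libraries in red and of the other 6 in grey, joined by a line for each of the 120 genes. Of these, 23 were below 0.1 FPKM (dotted line) in all 3 GSTP1-negative libraries.

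The other silent stretches held gene families as well. On chromosome 4, CXCL6, CXCL1 and CXCL5, neutrophil-attracting chemokines, were silent. CXCL1 was at 0, 0.0534 and 0 FPKM against 3.98 and 4.83 in the GSTP1-positive pair and 338 to 577 in the KRT8-low libraries. On chromosome 5, 3 protocadherin genes of the alpha and beta clusters and 5 of the gamma cluster, neural adhesion molecules, were silent. On chromosome 10 the aldo-keto reductases AKR1E2, AKR1C1 and AKR1C2 were, with AKR1C1 at 0.0663, 0.0118 and 0.0269 FPKM against 4.18 to 8.52. On chromosome 20 SIRPA, which binds the surface protein CD47, was at 0.00675, 0 and 0.00665 FPKM against 4.89 to 15.4. Of stretches whose genes were all above all 6 libraries, 14 held 75 genes with 0 zinc finger genes. Those below all 6 were 16 with 92 genes, 27 of them zinc finger genes.

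The remaining lists cover detoxification, positional identity, tumour suppression, antigen presentation and the cell surface. Of 14 listed glutathione transferases 9 were at 1 FPKM or more, GSTO1 at 64.5, 61.5 and 46.0 FPKM and MGST1 at 29.5, 20 and 18.8. Beside GSTP1, the genes GSTO2, GSTM2, GSTA1 and GSTA4 were below 1 FPKM in all 3. GSTA4 also lay below all 6, at 0.173, 0.191 and 0.0930 FPKM. MGST3 was above all 6 at 26.9, 18.2 and 25.4 FPKM. Of 18 examined HOX genes, 6 lay above all 6 libraries and 5 below, beside 14.1% and 13.6% of all genes. HOXA5, HOXA11 and HOXD9, which are among those above, reached the mean of 1 FPKM only through the GSTP1-negative libraries, so little can be read from that count. HOXD9 was at 5.54, 8.04 and 10.8 FPKM against at most 0.295, and HOXB4 at 0.182, 0.0368 and 0.108 against 2.60 to 9.73. In the list of tumour suppressors 2 of 17 lay above and 2 below: RB1 was above all 6 at 15, 10.8 and 15.5 FPKM, and STK11, the kinase LKB1, was below at 0.772, 0.436 and 0.308 against 9.80 to 12.6. Of 13 MHC class I pathway genes 2 lay above and 3 below. HLA-E was at 30.3, 20.8 and 32.9 FPKM against 60.2 to 78.2, and NLRC5, their transactivator, above all 6 at 6.77, 6.93 and 7.78.

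Of 34 examined surface antigens 7 lay above all 6 libraries and 3 below, beside 14.1% and 13.6% of all examined genes. L1CAM, ITGA1 and FGFR3, which are among those above, reached the mean of 1 FPKM only through the GSTP1-negative libraries. Little can therefore be read from the count above. CD55, which blocks complement, was at 206, 105 and 144 FPKM against at most 21.4. The insulin-like growth factor receptor IGF1R was at 30.7, 36.4 and 37.7 FPKM against at most 3.38, and the collagen receptor ITGA1 at 9.60, 10.3 and 5.3, with less than 1 in each other library. The adhesion molecule ALCAM was lower, at 2.42, 1.98 and 4.10 FPKM against 13 to 109. Of 24 housekeeping genes all 24 were at 1 FPKM or more, and 6 lay above all 6 libraries and 0 below (median 0.09), beside the same shares.

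Genes that marked the other kinds were checked in the GSTP1-negative libraries. Of the 9 genes at 50 FPKM or more in both libraries of the GSTP1-positive pair and below 0.1 in the KRT8-low libraries, the median level here was 0.0105% of that in the pair, and 6 were below 0.1 FPKM in all 3. EPCAM stood at 0.00628% and S100A16, a calcium-binding protein, at 78.9%. Of the 7 genes that marked the KRT8-low libraries in the same way, the median was 9.0%, with COL1A2 at 0.00899% and BASP1, a growth cone protein, at 194%.

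Within the kind the libraries varied as well. The highest of the 3 was more than 1 log2 unit above the lowest for 1477 of 13014 genes (11.3%), and for 6 of the 35 high-only genes (17.1%). FSTL3, an activin-binding protein, was at 330, 51.6 and 130 FPKM, which is 6.39 times from lowest to highest. FSTL3, the stress-inducible keratin KRT17 (7.65 times) and LAMB3 (5.19 times) were highest in siNC replicate 1 and lowest in siWFDC21P-1 replicate 1. PCSK1 was lowest in siNC replicate 1, as were ERG and GAL. Differences between siNC replicate 1 and the siWFDC21P-1 libraries rest on 1 library on the control side.

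Among genes in the tables of the first 5 libraries only, the comparison is with the GSTP1-positive pair, and the KRT8-low libraries were not analysed here. Of 7741 such genes 18 were at 10 FPKM or more in all 3 and below 1 in both of the pair. CGA was at 11.3, 36.9 and 14.9 FPKM against 0 and 0.0467. PRSS21, a testis serine protease, was at 92.3, 117 and 126 FPKM against 0.0719 and 0.0723. The germ cell antigen PAGE1 was at 107, 174 and 191 FPKM, CTAG2, of a family with near-identical copies and so uncertain, at 175, 258 and 244. The RNA-binding protein IGF2BP1, known from embryonic tissue, was at 23.7, 29.6 and 20.9 FPKM, and the laminin chain LAMA1 at 36.7, 36.1 and 25.4. The tetraspanin TSPAN8 was at 14.8, 26.6 and 19.2 FPKM and TDRD9, a germline RNA helicase, at 10.5, 12.6 and 11.7. Apart from CGA and PRSS21, these genes were chosen after their values were seen.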

How the data were processed

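RNA of the 9 libraries was sequenced and deposited by the authors as 1 table of FPKM per library. Per the submitters' processing notes, HISAT2 2.1.0, Bowtie2 2.2.3, HTSeq 0.6.0 and hg38 were used; their roles and the strand setting are not given in the sources used here. The size of 1 read was taken from low FPKM values. FPKM values were whole multiples of 1 read in all 9 libraries for 24684 of 26636 genes (92.7%, within a tolerance of 0.02 reads). This gave read counts for limits on 0, and for the other genes no fold is given. Libraries were chosen from KRT8 and GSTP1, and the members and lists were chosen with earlier results of these data known. Genes listed in all 9 files with a mean of at least 1 FPKM were compared on log2(FPKM + 1). A gene high in 1 kind only could reach this mean through that kind alone. No test was made, because the libraries were chosen on expression.

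Named genes were the markers, the 25 largest gaps in each direction among protein-coding genes with symbols (5 for long noncoding genes), members of gene stretches, the members of each of 29 lists with the 4 highest levels or 4 largest differences, and the 10 most variable. Other list members, the phosphodiesterases, the neighbours of PRSS56, the motif and the chromosome 19 zinc finger list were chosen after values were seen. Alternatives were left-out libraries, naming style, filters, gaps, pseudocount and rescaling by median-of-ratios factors. Annotation was GENCODE 29; Python 3.11.15, pandas 2.3.3, numpy 2.4.6 and matplotlib 3.10.9 were used, and the scripts were tested on simulated data. A few genes that the rule names are not reported here.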

Additional observations from a re-analysis of the deposited data

How the results depend on the processing

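Against the libraries of the same naming style alone, 3590 genes were higher, 4206 lower, 102 high only and 139 lost, and 35 chromosome 19 zinc finger genes were silent; pattern classes had no value there because no KRT8-low library was left. Without both libraries of the GSTP1-positive pair, an alternative chosen after seeing the data, the counts were 3945, 3236, 71, 101 and 40. In both cases fewer libraries had to be passed. With no filter on low values 2895 genes were lower, and with a mean of at least 5 FPKM 1143 were higher and 898 lower. A gap of at least 2 left 127 and 108. At 5 against 1 FPKM 69 genes were high only and 65 lost, and at 10 against 0.5 FPKM 20 were high only. A pseudocount of 0.1 gave 569 genes lowest and 156 between. Silence below 0.5 FPKM gave 37 stretches. Rescaling shifted the median of all genes by -0.07 and gave list medians of -1.42 (prostate), -0.13 (tumour suppressors) and 0.012 (housekeeping). The cause of these changes was otherwise not tested.

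Leaving out 1 library at a time gave 1885 to 2450 genes higher, 1831 to 2105 lower, 35 to 43 high only, 22 to 27 lost, 327 to 395 highest, 317 to 358 lowest, 60 to 81 between, 1067 to 1348 with the GSTP1-positive pair, 1110 to 1494 with the KRT8-low libraries, 23 to 30 silent zinc finger genes, 8 to 8 phosphodiesterases and 23 to 24 stretches. With a library left out, the counts of genes higher, lower, high only, lost and silent could only stay or rise. Of 5129 recomputed values 0 changed sign. Counts could not change sign, nor could gaps, because a gap that closes is set to 0, so only the list medians could. Of 4961 gaps of the 451 named genes, 4244 moved by less than 1 SD. No paired analysis was possible because the results come from no test. Depth limits low levels most in the KRT8-low libraries, where 1 read on 1 kb was worth up to 0.0614 FPKM.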

Other observations

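Genes in the longer tables that were at 10 FPKM or more in both libraries of the GSTP1-positive pair and below 1 FPKM in all 3 GSTP1-negative libraries numbered 21, and those named here were chosen after their values were seen. AZGP1, a secreted zinc-binding glycoprotein, was at 0.0380, 0 and 0 FPKM against 285 and 367. The kallikrein proteases KLK5 and KLK6 were at 0 in all 3 against 73.8 and 43.7 FPKM and 30.2 and 19.8 FPKM in the pair. KRT6B, a keratin of stratified epithelia, was at 0 against 49.9 and 21.3 FPKM. TMPRSS2, an epithelial membrane protease, was at 0 against 17.1 and 15.6 FPKM, and the claudin CLDN8 at 0 against 14.8 and 21.8. The precursor of the microRNA miR-200a, whose family represses ZEB1, was at 0 in all 3 and at 13.7 and 21.0 FPKM in the pair.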
